A study of Mus musculus with 9 samples.

Results

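The Tgf-beta ligands, receptors and latency proteins are a family of 10 genes, here Tgfb1, Tgfb2, Tgfb3, Tgfbr1, Tgfbr2, Tgfbr3, Ltbp1, Ltbp2, Ltbp3 and Ltbp4, measured in mouse embryonic stem cells with and without the DNA repair gene Xpc. They were found by the gene name that the array files give each probe: 19 of the 55681 probes carry a member's name, and 9 of the 10 genes entered the table of 19909 tested genes. The family was chosen by its log2 signal across the groups of these same arrays, so the members' levels and differences are given below as a description, with no test. The 95% intervals printed with them are not adjusted for that choice or for the number of genes tested, and they call no change. Xpc protein detects distorted DNA at the start of nucleotide excision repair, and the study asked about its other role, as a partner of Oct3/4 in transcription. The cells fell into 3 groups, each with 3 single-colour arrays of Cy3-labelled total RNA: a subcloned Xpc-null line (null, Xpc_KO), cells 4 days after deletion was started (induced, Xpc_f/f+Tx_day4), and cells without the deletion (floxed, Xpc_f/f-Tx). The induced and floxed cells carry deletable Xpc alleles (f/f), the parent line of the null cells is not named, and no label gives a further allele or agent beyond the abbreviation Tx. The null line is a subclone, so what the loss of Xpc changed and what came with the choice of that clone cannot be told apart in it. No label says whether the arrays of a group came from separate cultures, and p-values and intervals below may therefore measure technical spread alone.

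Tgf-beta is secreted as a latent complex. The active dimer stays wrapped in its own propeptide, which is bound in turn to a latent Tgf-beta binding protein of the Ltbp family that anchors the complex in the matrix. Once released, for example by integrins or thrombospondin, the dimer binds the type II receptor, which recruits and phosphorylates the type I receptor, and this passes the signal to Smad2 and Smad3. The betaglycan encoded by Tgfbr3 is a co-receptor needed above all for the Tgf-beta2 isoform, whose own affinity for the type II receptor is low. Mouse embryonic stem cells are known for a weak response to Tgf-beta and little type II receptor, while the related ligands Nodal and Activin act through other type I receptors.

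The arrays lay on 3 slides, each scanned by itself. The first slide carried floxed arrays 1 and 2, the second null array 3 and floxed array 3, and the third the 3 induced arrays with null arrays 1 and 2. No slide held both induced and floxed cells, so that comparison can be adjusted for slide only through the null arrays, which lie on the second slide and the third. The first slide held floxed arrays alone. With the slide as a block, here and below, comparisons with floxed cells therefore rest on floxed array 3 alone. Floxed array 3 stood apart from its group: set against floxed arrays 1 and 2 averaged, its log2 values differed with an SD of 0.49 over the tested genes, while arrays 1 and 2 differed from each other with an SD of 0.28. All levels are log2 processed signal relative to the 75th percentile of the same array, so 0 is the signal that 1 in 4 spots exceeded. Xpc itself read -0.85, -1.53 and -1.37 on the null arrays, -1.11, -0.68 and -1.05 on the induced arrays and 0.59, 0.55 and 0.16 on the floxed arrays. It fell by 1.68 in null against floxed cells (limma, adjusted p = 0.005833), a call that was lost with the slide as a block (-1.53, adjusted p = 0.1789), and did not pass in induced against floxed cells, where its log2 difference was -1.38 with no overlap of the groups (limma, adjusted p = 0.2238, and 0.03135 without floxed array 3). Whether the Xpc probe lies within the deleted part is not given in the sources used here.

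The readings below rest on 60-base probes, and the first 30 bases of those that carry the results on ligands and on the type II receptor are shown 5′ to 3′ so that each value can be tied to its sequence. Positions are those of the mouse build mm9 in the files, and an exon and UTR annotation of that build was not used here.
Tgfb2, brighter probe, chr1:188449333-188449392, minus strand: attggaaatacgcccaagatcgaacagctt
Tgfb2, dimmer probe, chr1:188447534-188447593, minus strand: tcatccattatttccctgatttcattgaaa
Tgfb1, chr7:26489877-26489936, plus strand: actgcccatcgtctactacgtgggtcgcaa
Tgfb3, chr12:87397804-87397863, minus strand: tcccatgtctgacatgatgactcggcccca
Tgfbr2, brighter probe, chr9:115997155-115997214, minus strand: tctagcggggaatttacagaatgctggtcc
Tgfbr2, dimmer probe, chr9:115999496-115999555, minus strand: gggaggagctgctcccaggagaagattcca
The longest run of bases shared by probes of different members was 9, over 158 probe pairs, and the longest shared by different probes of the same gene was 7, over 13 pairs. These runs compare probes with probes only. Whether a probe matches the transcript of another member was not examined.

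The promoters of Tgfb2, Tgfbr2 and Tgfb1, the 3 members whose null arrays lay apart from all the other arrays, are shown as the 250 bases before the annotated start, from RefSeq for the build GRCm38.p6. Of the 10 members 8 had an entry, and Tgfb3 and Tgfbr3 had none. Capitals mark 5 motifs found by their letters on either strand: the TATA box TATAAA, the GC box GGGCGG, the E-box CACGTG, the cyclic AMP response element core TGACG and the CCAAT box CCAAT.
Tgfb2, chr1:186705990-186706239, minus strand: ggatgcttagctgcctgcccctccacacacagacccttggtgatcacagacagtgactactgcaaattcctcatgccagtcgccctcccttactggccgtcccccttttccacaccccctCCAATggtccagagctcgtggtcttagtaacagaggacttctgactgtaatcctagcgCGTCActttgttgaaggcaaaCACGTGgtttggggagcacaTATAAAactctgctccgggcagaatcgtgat
Tgfbr2, chr9:116175364-116175613, minus strand: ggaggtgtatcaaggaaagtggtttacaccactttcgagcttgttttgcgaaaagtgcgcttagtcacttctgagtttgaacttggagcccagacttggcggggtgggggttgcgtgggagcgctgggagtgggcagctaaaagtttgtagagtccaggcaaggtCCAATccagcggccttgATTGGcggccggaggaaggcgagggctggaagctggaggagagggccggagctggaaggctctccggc
Tgfb1, chr7:25686752-25687001, plus strand: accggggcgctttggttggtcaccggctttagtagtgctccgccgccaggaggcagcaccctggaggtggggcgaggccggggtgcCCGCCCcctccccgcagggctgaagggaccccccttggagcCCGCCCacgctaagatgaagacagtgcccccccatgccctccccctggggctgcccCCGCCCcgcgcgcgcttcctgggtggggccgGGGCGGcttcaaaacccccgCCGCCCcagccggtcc
The Tgfb2 window held a TATA box that begins 31 bases before the start, an E-box at 51 bases, the response element core at 72 bases and a CCAAT box at 130 bases. It was the only one of the 12 windows of the 8 members with TATAAA or CACGTG. Over all 32851 promoter windows, 12.37% held TATAAA, 6.02% CACGTG, 17.77% TGACG, 33.85% CCAAT and 32.74% GGGCGG. The Tgfbr2 window had CCAAT on opposite strands at 85 and 68 bases and none of the other 4 motifs. The Tgfb1 window had 5 GC boxes and no other motif, and 75.2% of its bases were G or C, against 53.6% in the Tgfb2 window, 58.4% in the Tgfbr2 window and a median of 52.4% over all windows. Tgfb2 and Tgfbr2, the members with the widest range of group means, shared only the CCAAT box. A match of letters describes the sequence and says nothing of a bound factor.

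Tgfb2, the ligand known for its part in heart, eye and neural crest development, had the widest range of the family. Its brighter probe read -3.28, -3.21 and -3.51 on the null arrays, -0.90, -0.81 and -1.17 on the induced arrays and -0.11, -0.36 and -0.91 on the floxed arrays. Every null array thus lay more than 2 log2 units below every other array, while the induced and floxed arrays met at floxed array 3. The group means were -3.33 ± 0.16 in null, -0.96 ± 0.19 in induced and -0.46 ± 0.41 in floxed cells (SD, n = 3 each). The order was null below induced below floxed, and its upper neighbours overlapped.

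The log2 difference of null minus floxed cells was -2.87 with an SE of 0.20 and a 95% interval from -3.33 to -2.42, a level 0.137 times that of floxed cells. Against induced cells it was -2.37 (interval -2.83 to -1.92), 0.193 times their level. Induced minus floxed was -0.50 (interval -0.95 to -0.04). Only 1 of the 3 null arrays had this probe well above background, so the size of the null differences depends on how background was treated: with the normexp correction of the raw signal null minus floxed was -1.49 and null minus induced -1.11. Within the second slide null array 3 minus floxed array 3 was -2.60, and within the third slide the mean of null arrays 1 and 2 minus that of the induced arrays was -2.29.

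The dimmer probe, 1799 bases further downstream on the strand of the gene, gave the same order. It read -6.10, -5.47 and -5.35 on the null arrays, -2.96, -3.22 and -3.14 on the induced arrays and -2.37, -2.61 and -2.68 on the floxed arrays. Here no groups overlapped. It was not well above background on any null array, so its level there is only bounded: with each null array set to no less than the lowest signal that passed as above background, it was at least 2.0-fold lower than in floxed cells and at least 1.36-fold lower than in induced cells. The measured log2 differences were -3.09 ± 0.21 (SE) for null minus floxed and -0.56 ± 0.21 (SE) for induced minus floxed. Before any subtraction, the raw signal of the brighter probe was 3.07 to 4.25 times the local background on the null arrays, 6.60 to 8.21 times on the induced arrays and 7.66 to 9.82 times on the floxed arrays. That of the dimmer probe was 1.76 to 2.76 times the local background on the null arrays, 2.72 to 3.24 times on the induced arrays and 3.31 to 4.08 times on the floxed arrays. In this unsubtracted form the null arrays stood below all others at the brighter probe, and overlapped the induced arrays at the dimmer.

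**Figure D1:**
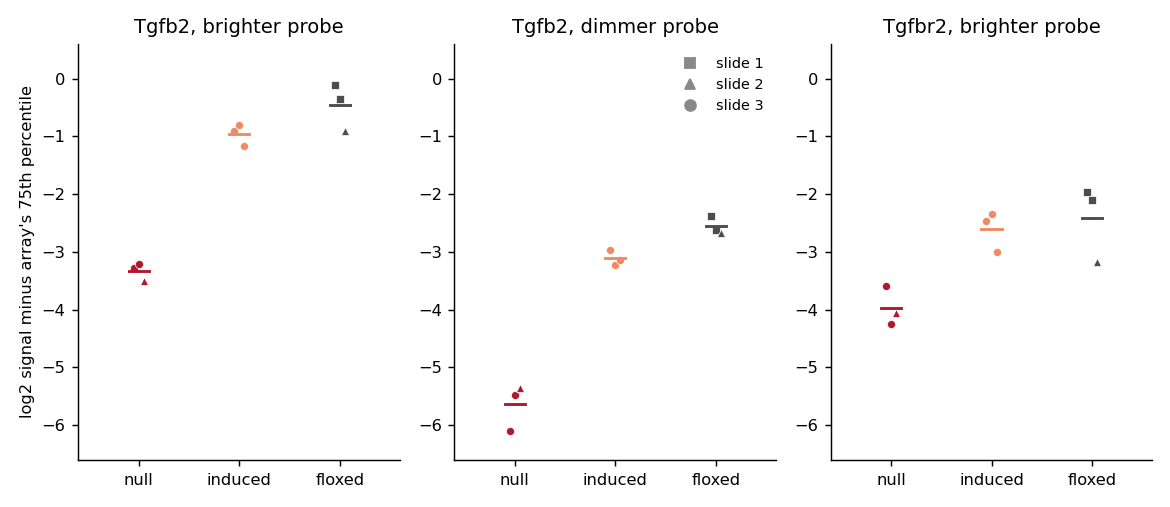
Level (log2 signal minus the array's 75th percentile) of both Tgfb2 probes and of the brighter Tgfbr2 probe on each null, induced and floxed array; points are arrays, their shape marks the slide and the horizontal line is the group mean. The 3 null arrays lie below all 6 others in each panel, and the floxed array of slide 2 is the lowest floxed point in each.

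Tgfb1, the ligand best known from immune cells, platelets and wound healing, was the only ligand with a higher mean in null cells. It read -1.24, -1.03 and -1.33 on the null arrays, -1.58, -1.65 and -1.54 on the induced arrays and -1.75, -1.73 and -1.38 on the floxed arrays. The null arrays lay above all the others, but floxed array 3 came within 0.04 of the lowest null array, which shares its slide. Null minus floxed was 0.42 on the log2 scale (SE 0.13, interval 0.13 to 0.71), 1.34 times the floxed level, and null minus induced was 0.39 (interval 0.10 to 0.68). Within the second slide the difference of null and floxed cells was 0.04, and with floxed array 3 left out it was 0.54. Induced minus floxed was 0.03 (interval -0.26 to 0.32), and those groups overlapped.

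Tgfb1 and Tgfb3 each had 10 spots of their probe on every array, which shows the reading error directly. The SD between spots of an array was 0.12 to 0.20 for Tgfb1 and 0.17 to 0.37 for Tgfb3, with 7 to 10 and 8 to 10 spots left after outlier spots were removed. The standard error of an array's mean was 0.05 (median) for Tgfb1 and 0.08 for Tgfb3. These errors cover spots of 1 array and not the variation between samples.

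**Figure D2:**
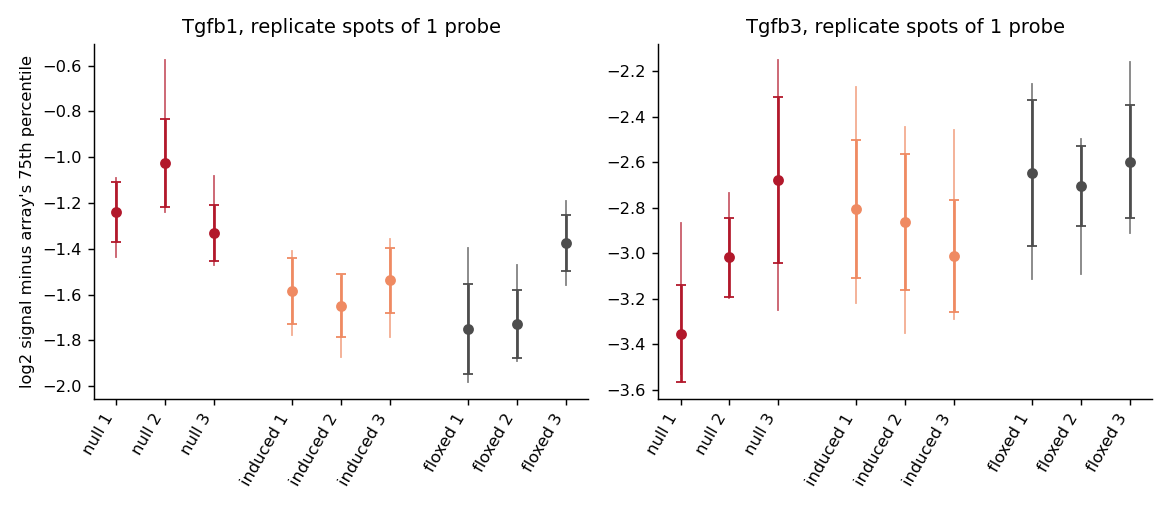
Level of Tgfb1 (left) and Tgfb3 (right) on each array, null to the left, then induced, then floxed (log2 signal minus the array's 75th percentile); points are means over the replicate spots of 1 probe, capped bars the SD over spots and thin lines the lowest and highest spot. For Tgfb1 the spots of floxed array 3 average -1.38, against -1.75 and -1.73 on the other floxed arrays; for Tgfb3 the null arrays spread from -3.35 to -2.68.

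Tgfb3, the ligand known for palate fusion, read -3.35, -3.02 and -2.68 on the null arrays, -2.81, -2.86 and -3.01 on the induced arrays and -2.65, -2.71 and -2.60 on the floxed arrays. The null arrays spread over a wider range than the other groups and reached the floxed levels with null array 3. Null minus floxed was -0.37 (interval -0.73 to -0.01) and -0.08 within the second slide. Induced minus floxed was -0.24 (interval -0.60 to 0.12), with no overlap of those groups, and null minus induced -0.12 (interval -0.48 to 0.24).

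Tgfbr2, the type II receptor that binds the ligand, was the other member whose null arrays lay far from the rest. Its brighter probe read -3.60, -4.25 and -4.06 on the null arrays, -2.46, -2.35 and -3.00 on the induced arrays and -1.96, -2.09 and -3.17 on the floxed arrays. All null arrays lay below all other arrays, and floxed array 3 lay below every induced array. The group means were -3.97 ± 0.34 in null, -2.60 ± 0.35 in induced and -2.41 ± 0.66 in floxed cells (SD, n = 3 each), the upper neighbours again overlapping. Null minus floxed was -1.56 (SE 0.33, interval -2.30 to -0.82), null minus induced -1.37 (interval -2.11 to -0.63) and induced minus floxed -0.20 (interval -0.94 to 0.55).

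The Tgfbr2 differences were less firm than those of Tgfb2. The probe was well above background on 1 of the 3 null arrays. The raw signal was 2.19 to 3.48 times the local background on the null arrays, 2.88 to 3.53 times on the induced arrays and 2.53 to 4.13 times on the floxed arrays, which overlap. Null minus floxed was -0.90 within the second slide, -1.94 without floxed array 3 and -0.49 with the normexp correction. The dimmer Tgfbr2 probe was well above background on only 2 of 9 arrays and averaged -3.80 ± 0.36 in null, -3.79 ± 0.55 in induced and -3.84 ± 0.69 in floxed cells (SD, n = 3 each), so it showed no order of the groups.

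Tgfbr1, the type I receptor kinase that phosphorylates Smad2 and Smad3, had nearly the same level on all arrays. Its brightest probe read 0.14, 0.08 and 0.30 on the null arrays, 0.17, 0.31 and 0.31 on the induced arrays and 0.18, 0.23 and 0.29 on the floxed arrays. The 3 groups overlapped, with null minus floxed at -0.06 (interval -0.28 to 0.16), null minus induced at -0.09 (interval -0.31 to 0.13) and induced minus floxed at 0.03 (interval -0.19 to 0.25). A difference of more than 0.31 in either direction lay outside each of these intervals. They may measure technical spread alone, so they set no bound for separate cultures. A further probe for the same transcript averaged -2.44 ± 0.51 in null, -2.53 ± 0.31 in induced and -2.52 ± 0.09 in floxed cells (SD, n = 3 each). Both remaining probes, designed on other transcript models of the gene, were above background on 0 of 9 arrays.

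Tgfbr3, the betaglycan co-receptor, was the member that did not enter the tested table. Its single probe read -3.92, -4.50 and -4.20 on the null arrays, -5.48, -3.72 and -4.28 on the induced arrays and -5.00, -4.71 and -3.90 on the floxed arrays, and was well above background on 1 of the 9. At these levels no difference between the groups was detectable.

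Among the latency proteins no gene had a range of group means as wide as that of Tgfb2 or Tgfbr2. Ltbp1, which binds the latent complex of all 3 ligands, read -1.89, -1.59 and -1.86 on the null arrays, -1.35, -1.52 and -1.69 on the induced arrays and -1.79, -1.83 and -1.91 on the floxed arrays. Its highest group was the induced one: induced minus floxed was 0.32 (interval 0.05 to 0.60) with no overlap, null minus induced -0.26 (interval -0.53 to 0.02) and null minus floxed 0.06 (interval -0.21 to 0.34). All induced arrays shared the third slide, which held no floxed array. A second Ltbp1 probe, on another transcript model, was above background on 3 of 9 arrays.

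Ltbp2, which is tied to elastic microfibrils and is known not to bind the latent complex itself, read -3.26, -3.11 and -2.77 on the null arrays, -2.77, -2.45 and -2.80 on the induced arrays and -2.51, -2.60 and -2.30 on the floxed arrays. Its group means ran null below induced below floxed, and each neighbour in that order overlapped the next. Null minus floxed was -0.58 (SE 0.16, interval -0.93 to -0.22) with no overlap, and -0.47 within the second slide. The normexp correction reduced it to -0.22.

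Ltbp3, which is known from bone and tooth growth, gave different answers at its 2 probes, whose starts lie 207 bases apart. The brighter probe read -0.55, -0.69 and -0.15 on the null arrays, -0.42, -0.40 and -0.65 on the induced arrays and -0.57, -0.26 and -0.27 on the floxed arrays, with null minus floxed at -0.09 (interval -0.45 to 0.27). The dimmer probe read -1.37, -1.36 and -1.22 on the null arrays, -0.75, -0.88 and -1.01 on the induced arrays and -0.54, -0.59 and -1.36 on the floxed arrays. At that probe null and induced arrays did not overlap (-0.44 ± 0.22, SE), while floxed array 3 minus the mean of the other floxed arrays was -0.79, which put it at the null level.

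Ltbp4, the latency protein best known from the lung and from elastic fibre assembly, had the brightest probe of the family. That probe read 4.76, 4.96 and 4.72 on the null arrays, 4.66, 4.72 and 4.76 on the induced arrays and 4.70, 4.70 and 4.64 on the floxed arrays. Null minus floxed was 0.13 (interval -0.08 to 0.35), null minus induced 0.10 (interval -0.11 to 0.32) and induced minus floxed 0.03 (interval -0.18 to 0.25). Its other probes had null minus floxed differences of 0.07 and -0.03.

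**Figure D3:**
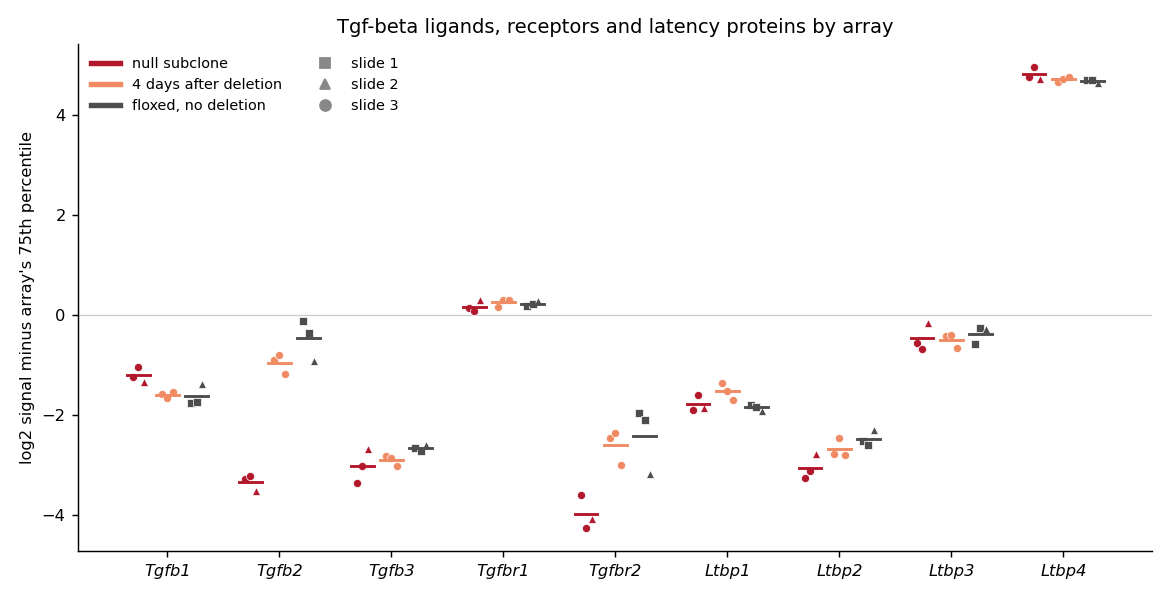
Level of the 9 tested members on every array (log2 signal minus the array's 75th percentile), each gene at its brightest probe; null, induced and floxed arrays stand side by side, point shape marks the slide and lines are group means. Tgfb2 and Tgfbr2 show the widest gaps, with null means of -3.33 and -3.97, while Tgfbr1 and Ltbp4 differ by at most 0.09 and 0.13 between group means. Heights are set by each probe and are not to be compared between genes.

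In the fit across all tested genes, limma called 1 of the 9 tested members in null against floxed cells, Tgfb2, where 1.85% of all genes were called, and the same gene in null against induced cells, where 2.2% were called. In induced against floxed cells 0 of 9 were called and 0.00502% of all genes, which is 1 gene, although 1177 genes had an unadjusted p under 0.05. Since these contrasts chose the family, the counts are given without further reading. The groups did not overlap in 5 of 9 members for null and floxed cells (Tgfb1, Tgfb2, Tgfbr2, Ltbp2 and Ltbp4), beside 23.4% of all genes. For induced and floxed cells this held for 2 members (Tgfb3 and Ltbp1), beside 12.9%, and for null and induced cells for 3 (Tgfb1, Tgfb2 and Tgfbr2), beside 37.2%. The median difference of the 9 members was -0.09 for null minus floxed, -0.12 for induced minus floxed and -0.12 for null minus induced cells, and over all tested genes it was 0.01, 0.00 and 0.02. With the slide as a block, floxed array 3 alone stands for the floxed cells. Induced minus floxed was then -0.31 for Tgfb2, -0.41 for Tgfb1, 0.21 for Tgfb3 and 0.43 for Tgfbr2. The sign for Tgfb1, Tgfb3 and Tgfbr2, and likewise for Ltbp2, Ltbp3 and Ltbp4, was not that of the fit without the block. The comparisons share arrays with each other, null minus floxed and induced minus floxed the floxed ones.

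**Figure D4:**
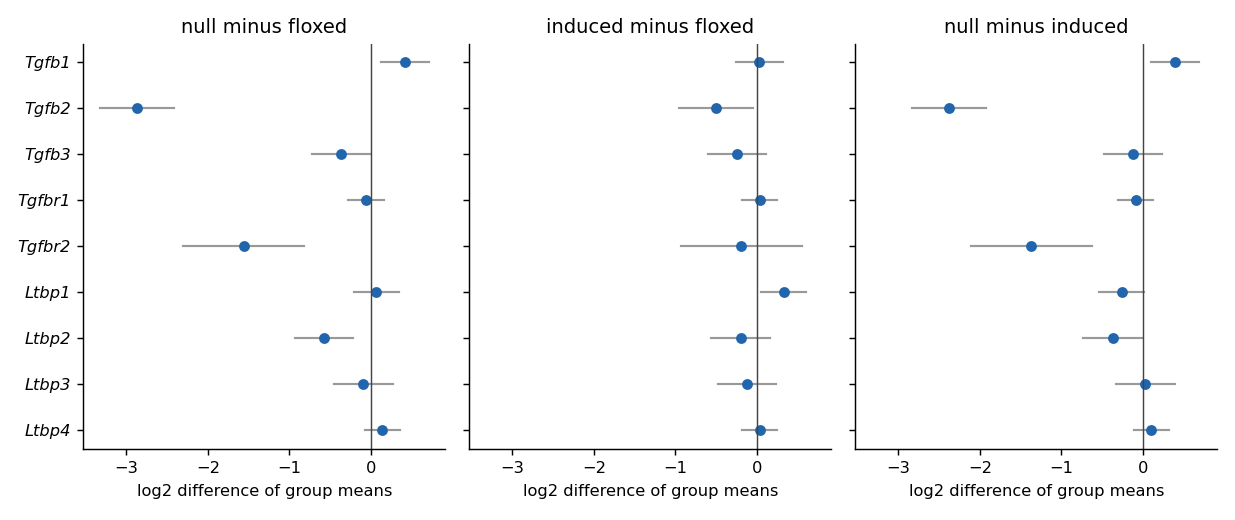
Log2 differences of group means for the 9 tested members in the 3 comparisons. Points are estimates from the fit of 3 group means and lines their unadjusted 95% intervals. Tgfb2 at -2.87 and Tgfbr2 at -1.56 lie farthest from 0 for null minus floxed, and for induced minus floxed all 9 estimates lie between -0.50 and 0.32.

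The genes whose pattern was most like that of Tgfb2 were found by Pearson's r over the 9 arrays, given as a description of arrays that fall into the same groups and slides. They were Cc2d1b (r = 0.990), Anxa5 (0.989), an annexin that binds membrane phospholipid, Gsn (0.989), the actin-severing gelsolin, Cald1 (0.988), the actin-binding caldesmon, and Ly6a (0.988), the surface antigen Sca-1. Anxa5 averaged 0.41 in null, 1.63 in induced and 1.76 in floxed cells. Gsn averaged -0.79 in null, 0.75 in induced and 0.95 in floxed cells. Cald1 averaged -1.55, Ly6a -2.26 and Cc2d1b 4.43 in null cells, against -0.17, -0.83 and 4.76 in induced and 0.02, -0.45 and 4.84 in floxed cells. The mean of Cc2d1b thus moved over a far narrower range than that of Tgfb2, since r does not measure the size of a change.

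The other genes of the pathway were followed in 5 lists of 67 genes in all, 56 of which were tested. These lists, and the marker lists further below, were chosen with earlier results of these data known. Their counts are therefore a description and no independent evidence. In null against floxed cells 9 of the 56 fell and 0 rose (limma, adjusted p under 0.05), beside 1.11% of all genes that fell. In null against induced cells 8 of 56 fell and 0 rose, beside 1.54%, and in induced against floxed cells 0 of 56 were called. With floxed array 3 left out these counts of called genes were 21, 20 and 2, beside 24.9%, 18.1% and 0.782% of all genes called in those fits. With the slide as a block they were 3, 17 and 1, beside 0.251%, 16.3% and 0.874%. Leaving out any other single array gave 7 to 9 for null against floxed and 5 to 6 for null against induced cells, with 5 wherever an induced or null array was left out. The 9 that fell against floxed cells were 1 activator and 8 target genes.

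Among the 14 tested activators and matrix partners of latent Tgf-beta, which include integrins, proteases and fibronectin, only Thbs1 passed. Thbs1 encodes thrombospondin-1, which can release the active ligand from its propeptide. It read -1.65, -1.93 and -2.30 on the null arrays, 0.26, 0.17 and 0.28 on the induced arrays and 0.44, 0.43 and -0.20 on the floxed arrays. Every null array lay below every other. It fell by 2.18 against floxed cells (limma, adjusted p = 0.001755) and fell by 2.19 against induced cells (limma, adjusted p = 0.00313), and it passed under all 22 alternatives in which it was tested. The other 13 had null minus floxed differences of -0.73 to 0.34, none past the threshold, and 7 further genes of the list, Itgb6, Itgb8, Fbn1, Mmp9, Plat, Plau and Emilin1, were not above background often enough to be tested.

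None of the 7 tested co-receptors, decoys and ligand binders, of the 7 Smads and other transducers or of the 12 inhibitors and feedback genes passed in any comparison. For null minus floxed cells the co-receptor list, with endoglin and biglycan among it, ranged from -0.80 to 0.49 with a median of 0.12. The transducers, among them Smad2, Smad3, Smad4 and the kinase gene Map3k7, ranged from -0.53 to 0.19 with a median of 0.02. The inhibitors, which include the inhibitory Smad6 and Smad7 and the repressors Ski and Skil, ranged from -0.51 to 0.93 with a median of 0.17. Of the 12, 9 had a higher mean in null cells and 3 a lower. The groups did not overlap for 4, beside 23.4% of all genes: Skil (0.93), Smad7 (0.31), Nedd4l (0.25) and Pmepa1 (-0.51). Floxed array 3 read 3.01 for Skil, close to the null arrays at 3.06 to 3.16. These values were picked out after they were seen. The median over all genes was 0.01.

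Of the 16 tested textbook target genes, 8 fell in null against floxed cells and 0 rose, with a list median of -0.64. They included Acta2 and Tagln, which encode smooth muscle actin and transgelin, Tpm1, a tropomyosin, Col1a1 and Col1a2, the chains of type I collagen, Cdkn2b, the cell cycle inhibitor p15, and Ccn1, a secreted matrix protein. Acta2 read -1.38, -1.39 and -1.14 on the null arrays, 1.80, 1.38 and 1.34 on the induced arrays and 2.54, 2.69 and 1.52 on the floxed arrays. It fell by 3.55 against floxed cells (limma, adjusted p = 0.0007624) and fell by 2.81 against induced cells (limma, adjusted p = 0.003615).

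Tagln read 2.47, 2.74 and 2.65 on the null arrays, 4.42, 3.88 and 3.94 on the induced arrays and 4.77, 4.76 and 4.54 on the floxed arrays. It fell by 2.07 against floxed cells (limma, adjusted p = 0.00063), and the null arrays lay below all others.

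Col1a1 fell by 2.39 and Col1a2 fell by 2.07 in null against floxed cells (limma, adjusted p = 0.00063 and 0.01337). Tpm1 fell by 0.93 and Cdkn2b fell by 0.85 (limma, adjusted p = 0.003541 and 0.005064), with null arrays at 2.41 to 2.56 and -2.02 to -1.94, against 3.34 to 3.46 and -1.24 to -1.02 on the floxed arrays. Ccn1 fell by 0.58 (limma, adjusted p = 0.04449), a call that was lost in 14 of 22 alternatives, among them each fit that left out floxed array 1 or 2, induced array 2 or 3, or any null array (adjusted p = 0.07675 to 0.17). Col1a2 lost its call without floxed array 2, null array 1 or null array 2 (limma, adjusted p = 0.06928, 0.05834 and 0.07323). With the slide as a block, Tagln, Tpm1, Cdkn2b, Col1a2 and Ccn1 missed the threshold (adjusted p = 0.06644 to 0.2191), and Acta2 and Col1a1 still passed.

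Against induced cells 7 of the 16 targets fell and 0 rose, all of the 8 that fell against floxed cells but Ccn1. The differences were -2.18 for Col1a1, -1.70 for Col1a2, -1.46 for Tagln, -0.55 for Tpm1 and -0.51 for Cdkn2b, besides that of Acta2 given above. The calls on Tpm1 and Cdkn2b were each lost when any 1 of the 9 arrays but floxed array 3 was left out (limma, adjusted p = 0.05479 to 0.116 and 0.05538 to 0.1436), and that on Col1a2 when any induced or null array was (0.05039 to 0.1226). Other target genes did not pass, among them Ccn2 at -0.35, Tgfbi at 0.43, Junb at 0.29, Cdkn1a at -0.43, Snai1 at -0.12 and Snai2 at -0.69 for null minus floxed cells. Cdkn2b, Ccn1 and those 6 were named after their values were seen, to show the list beyond its calls.

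**Figure D5:**
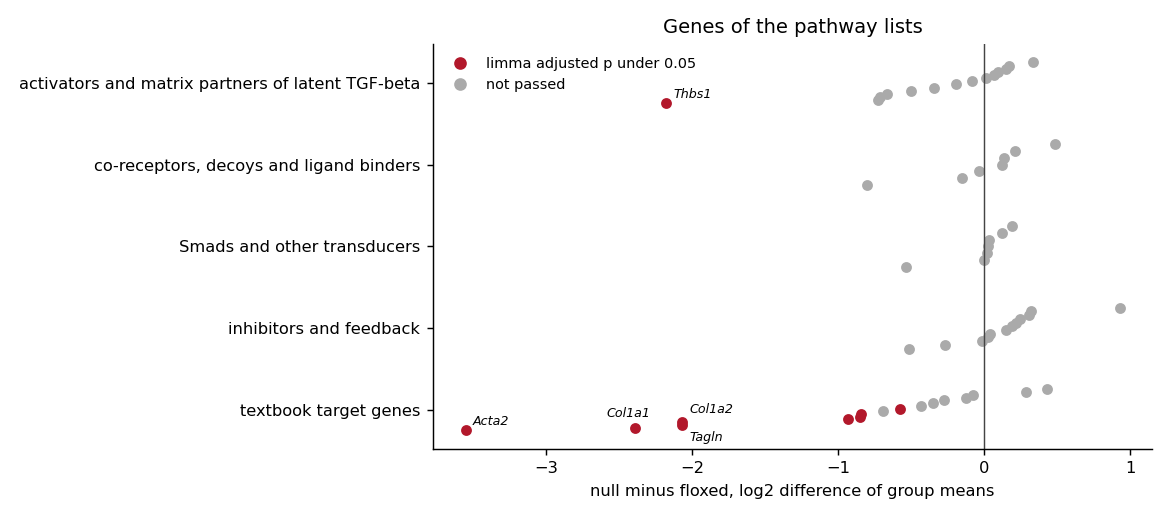
Null minus floxed log2 differences of the 56 tested genes of the 5 pathway lists, 1 point a gene; red points passed limma's adjusted p of 0.05 and grey points did not. Calls lie in the target list (8 of 16) and at Thbs1 among the activators (1 of 14), and the remaining 3 lists hold no call.

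The cells carried the markers of embryonic stem cells on all arrays. The linear level of 10 such genes was summed in units of the array's 75th percentile. It was 798 to 920 in null, 845 to 1038 in induced and 899.6 to 1006 in floxed cells. Dppa5a, the brightest of them, weighs most in that sum. In null against floxed cells 0 of the 10 passed, 8 had a lower and 2 a higher mean in null cells. Those groups did not overlap for Nanog (-0.60), Pou5f1 (-0.55) and Utf1 (0.38). Against induced cells 1 of the 10 passed, Utf1, higher by 0.59 in null cells (limma, adjusted p = 0.0322). Markers of other cell types moved beside the members. Over all tested genes 1.11% fell in null against floxed cells and 1.85% were called in either direction. Of the 9 tested trophectoderm genes 6 fell in that comparison (limma, adjusted p under 0.05). Another 2, Eomes (0.45) and Ascl2 (0.24), had a higher mean in null cells and did not pass. Of the 6, Cdx2 was well above background on 0 of the 3 null arrays, and Gata3 and Hand1 on 1 each. Those genes entered the test through the groups in which they were higher. The summed level of the 9 was 39.9 to 42.8 in null, 71.3 to 97.1 in induced and 82.4 to 119 in floxed cells. Krt18, Krt8 and Tfap2c, the brightest of the 9, weigh most in that sum, and Tfap2c did not pass. Of the 13 fibroblast genes, the markers of feeder cells, 7 were tested and 4 fell, Col1a1, Col1a2, Col3a1 and Twist2, of which the first pair are also in the target list. Col3a1 and Twist2 were well above background on 0 of the 3 null arrays and likewise entered through the other groups. The summed level of these 7 was 3.70 to 4.42 in null, 3.64 to 3.87 in induced and 4.16 to 4.85 in floxed cells. That sum includes Thy1, which had a null minus floxed difference of 1.37 and did not pass, with levels of 1.26, 1.58 and 1.35 on the null arrays, 0.21, -0.09 and 0.04 on the induced arrays and -0.63, -0.43 and 1.15 on the floxed arrays. Fbln2 also had a higher mean in null than in floxed cells, by 0.09. Thy1 was then left out of the sum, a step chosen after its values were seen. Without it the sum was 1.31 to 1.55 in null, 2.49 to 2.84 in induced and 2.63 to 3.70 in floxed cells. Every null array then lay below all others. The fibroblast markers Dcn, Lum, Postn, Pdgfra, Pdgfrb and Fap were not above background often enough to be tested in any group. Over the 4 marker lists 11 genes were called in null against floxed cells, beside 22 without floxed array 3, where 24.9% of all genes were called, 5 to 8 without any other single array, and 3 with the slide as a block. Where a probe had to be well above background on all arrays the count was 6, beside 2.42% of all genes called. The part of other cell types in the values of Tgfb2, Tgfbr2 and the target genes was not tested, and in bulk RNA fewer cells of a type and less RNA per cell cannot be told apart.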

How the data were processed

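The authors deposited scanner files of 9 Cy3 arrays. The submitters' processing notes name Agilent Feature Extraction 10.7.3.1. They hold, per the file headers, spot intensity on a linear scale: a processed signal (background subtracted and detrended, not scaled between arrays), the raw mean signal and the local background. The deposited series matrix repeats the mean signal: 100% of its values matched within 0.6%, and its column medians were 94.5 to 140.

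From 59305 spots that were not controls, outlier spots were left out and log2 values averaged per probe. Each log2 value was set relative to the 75th percentile of its own array (346 to 471). Between 47.4% and 57.9% of spots lay well above background and 0 were saturated; the number of arrays limits the precision. A probe was kept (27529) where some group had it well above background on each of its 3 arrays, and the brightest kept probe stood for its gene. Genes were named through RefSeq accessions where the table of assembly GRCm38.p6 held them (27235 probes) and otherwise by the file (28446). Groups came from the labels. The 3 comparisons were 1 limma 3.58.1 fit (R 4.3.3) of group means, two-sided, Benjamini-Hochberg over all genes, threshold 0.05, checked on simulated data. "At least N-fold" sets each array of the lower group to no less than its lowest signal well above background. Alternatives were normexp (offset 50), quantile normalization, median centring, the series matrix, other filters and probe rules, fits of fewer groups, slide and replicate blocks, and leaving out each array.

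The members and lists were chosen with earlier results of these data known. By rule the text names all members, up to 6 passing genes of each pathway list and direction, 5 genes most like the widest-ranging member, and Xpc, with further genes named after their values were seen and marked as such; 1 passing target gene is counted but not reported here. The marker lists were embryonic stem cells, fibroblasts, trophectoderm and primitive endoderm; of the last, 1 of 3 tested genes fell in null against floxed cells and sums overlapped (12.9 to 16.1 in null, 13.1 to 14.1 in induced and 11.3 to 15.8 in floxed cells).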

Additional observations from a re-analysis of the deposited data

How the results depend on the processing

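The called differences of Tgfb2, the only member called, kept their sign under each of the 22 alternatives that gave a value. These alternatives refit the arrays by which the family was chosen, so they describe the processing and are no support for the call. Over all members, 39 of 606 recomputed values moved by more than the spread between arrays. Tgfb2 lay between -3.10 and -1.49 for null minus floxed cells; it is not among the genes tested when a probe must be well above background on all arrays. The number of genes called depended more on the processing. For null against floxed cells it was 368, and 570 with normexp, 76 with no filter, 82 with only the compared groups fitted, 50 with the slide block, 103 with slide as a random block, and 71 to 4969 with 1 array left out; the highest came without floxed array 3. With median centring 78 rose and 216 fell, against 147 and 221. For induced against floxed cells 1 gene was called, and 0 with normexp, quantile normalization, the series matrix, no filter, the filter on all arrays or slide as a random block, 3 with median centring, 174 with the slide block and 0 to 156 with 1 array left out, again highest without floxed array 3. For null against induced cells 438 were called, and 63 with no filter, 2779 with only the compared groups, 3248 with the slide block, 1812 with slide as a random block and 60 to 3611 with 1 array left out. Leaving out both arrays of the second slide, chosen after seeing the data, gave 5002, 117 and 3213 for the 3 comparisons. The cause was not tested.

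The fit with a replicate block called 166 genes for null against floxed, 1 for induced against floxed and 189 for null against induced cells. Arrays that share a number correlated in their deviations between -0.11 and 0.09 (9 pairs), other pairs between -0.12 and 0.10 (18 pairs). No pairing by number was seen, though with 3 arrays a group such correlations could miss it.

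For Xpc the log2 difference of null minus floxed cells was -1.53 with the slide block, where it missed the threshold (limma, adjusted p = 0.1789). Induced minus floxed passed at -1.51 without floxed array 3, with or without null array 3, and did not pass in the other fits. With 1 array left out, null minus floxed ran from -1.88 to -1.54, induced minus floxed from -1.51 to -1.30 and null minus induced from -0.50 to -0.17.

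Low signal limits Tgfb2 and Tgfbr2 in null cells, where few arrays had them above background, and Tgfbr3 in all groups.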
